A study of Mus musculus with 25 samples.

Results

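H3K27me3 on the autosomes of regenerating myofibers was compared between mice expressing HIF1dPA and wild-type mice. Members were the H3K27me3 peaks on chromosomes 1 to 19 in the 3 wild-type and the 3 HIF1dPA lists, 12086 of the 55242 peaks in the 24 ChIP lists of the series. Chromatin immunoprecipitation sequencing (ChIP-seq) had been carried out with an H3K27me3 antibody on myofibers of the tibialis anterior muscle taken 14 days post injury (dpi). Both groups carried a mito-Dendra2 reporter allele switched on by the Pax7-Cre(ERT2) driver, whose activity is restricted to muscle stem cells. All received tamoxifen at 75 mg/kg for 5 days and then 50 µL of 1.2% BaCl2, which destroys myofibers and starts regeneration. HIF1dPA mice additionally expressed, after Cre recombination, a HIF1α whose proline-to-alanine changes keep the VHL protein from recognising it. Fibers were dissected by their fluorescence and nuclei were not sorted, so nuclei that did not derive from recombined stem cells can be present in both groups. Age, sex and sequencing depth were not given, and the lists hold called peaks and no reads. The study calls the 3 libraries of a group biological replicates, and the p-values measure the spread between them.

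H3K27me3 is the trimethyl mark that Polycomb repressive complex 2 places on histone H3 at genes that are kept silent. In differentiated tissue it covers genes of other lineages and of earlier stages, above all CpG-rich promoters of homeobox, forkhead, paired-box and other developmental transcription factors. Broad domains over whole loci are typical of strongly repressed genes. In skeletal muscle the developmental myosin gene Myh8 is among the genes silenced as fibers mature. In these lists no gene of the adult muscle structural list (0 genes with a peak) and no myosin heavy chain gene other than Myh8 had a peak in any of the 6 libraries.

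The bases over which wild-type peaks lay are shown for 4 developmental start sites, because peaks of all 3 wild-type lists and of no HIF1dPA list met them. Each sequence is the 250 bases before the RefSeq start in mm10, read 5′ to 3′ on the gene's strand, with each CG in capitals. Msx1, a homeobox gene of limb and craniofacial mesenchyme, is at chr5:37824586-37824835 on the minus strand. Dlx2, a homeobox gene of the forebrain and branchial arches, is at chr2:71546755-71547004 on the minus strand. Otp, a homeobox gene of hypothalamic neurons, is at chr13:94875386-94875635 on the plus strand. Pax6, the paired-box gene of eye development, is shown at its start at chr2:105682213-105682462 on the plus strand.
Msx1: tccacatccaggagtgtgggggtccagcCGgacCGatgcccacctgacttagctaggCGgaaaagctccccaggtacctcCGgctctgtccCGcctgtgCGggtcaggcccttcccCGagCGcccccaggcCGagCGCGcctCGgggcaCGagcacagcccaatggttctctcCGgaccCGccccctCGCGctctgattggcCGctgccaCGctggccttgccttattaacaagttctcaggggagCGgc
Dlx2: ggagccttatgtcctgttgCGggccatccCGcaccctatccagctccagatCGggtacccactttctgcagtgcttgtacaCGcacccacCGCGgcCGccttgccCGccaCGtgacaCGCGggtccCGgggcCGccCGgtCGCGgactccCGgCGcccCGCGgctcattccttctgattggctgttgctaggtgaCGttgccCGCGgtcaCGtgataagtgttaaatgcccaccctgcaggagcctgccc
Otp: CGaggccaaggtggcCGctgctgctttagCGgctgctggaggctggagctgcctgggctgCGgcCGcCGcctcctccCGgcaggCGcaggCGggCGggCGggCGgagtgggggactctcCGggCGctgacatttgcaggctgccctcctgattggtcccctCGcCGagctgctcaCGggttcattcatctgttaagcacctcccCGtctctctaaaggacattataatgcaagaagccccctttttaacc
Pax6: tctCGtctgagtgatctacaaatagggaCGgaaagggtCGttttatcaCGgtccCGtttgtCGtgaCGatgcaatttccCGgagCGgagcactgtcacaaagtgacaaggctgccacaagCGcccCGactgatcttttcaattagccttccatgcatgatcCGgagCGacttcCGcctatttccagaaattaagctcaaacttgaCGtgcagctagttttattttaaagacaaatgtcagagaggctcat
These windows held 20, 24, 18 and 15 CG dinucleotides, which read alike on both strands. At least 15 CG were present in 28.1% of the windows of 25748 autosomal gene symbols, whose median was 6. The limit of 15 is the lowest count of the 4 windows shown. CG counts of lost and kept start sites were not compared, so these 4 do not describe lost start sites in general. The annotation assigned no HIF1dPA peak to Msx1. Dlx2 had an assigned peak elsewhere in 2 HIF1dPA lists, and Otp and Pax6 had peaks elsewhere in all 3.

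The HIF1dPA lists were short. The wild-type lists held 3763, 3433 and 3427 autosomal peaks and the HIF1dPA lists 474, 493 and 496, so the groups did not overlap and the ratio of the means was 0.138. Peaks covered 3.20 Mb ± 0.276 in wild-type and 0.333 Mb ± 0.0132 in HIF1dPA lists (SD, n = 3 each). Assigned peaks named 1932 ± 84.3 genes per wild-type list and 426 ± 4.58 per HIF1dPA list (SD, n = 3 for both). The median peak was 758 bp ± 20.1 wide in wild-type and 617 bp ± 5.51 in HIF1dPA (SD, n = 3 each). Each of these 4 differences gave the smallest p that 3 against 3 libraries allow (exact two-sided permutation p = 0.1, adjusted p = 0.1), so none could pass 0.05. On each of the 19 autosomes every HIF1dPA list had fewer peaks than every wild-type list, with ratios of the means from 0.0894 on chromosome 7 to 0.197 on chromosome 3.

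Peaks in the HIF1dPA lists were also weaker. Peak strength was read from the deposited score, -10 × log10 of the p-value that the peak caller gave, so a score of 50 stands for a p of 1e-05. The share of peaks with a score of at least 100 was 16.8% ± 1.05 in wild-type and 4.16% ± 0.855 in HIF1dPA lists (SD, n = 3 each), and the ranges did not overlap. The median score was 62.8 ± 0.821 in wild-type and 55.8 ± 0.435 in HIF1dPA (SD, n = 3 each), close to the lower end of the lists. Wild-type genes with a peak carried 1.83 ± 0.0234 peaks each and HIF1dPA genes 1.14 ± 0.0191 (SD, n = 3 each). Genes with at least 2 peaks made up 34.3% ± 1.32 in wild-type and 11.5% ± 1.57 in HIF1dPA (SD, n = 3 each). The score grows with sequencing depth, whose part in these differences was not tested.

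The short lists were particular to HIF1dPA within this mark. The other 9 H3K27me3 libraries of the series, from wild-type, mfn2-/- and vhl-/- myofibers, held 2342 to 4023 autosomal peaks, against 474 to 496 in the 3 HIF1dPA libraries (ratio of means 0.149, exact two-sided permutation p = 0.00455, the smallest possible, adjusted p = 0.00455 over 4 tests). They held peaks at 1233 to 2058 genes, against 422 to 431 (ratio 0.245, exact permutation p = 0.00455, adjusted p = 0.00455). These tests, and those of the promoter share below, treat libraries of different genotypes as interchangeable. HIF1dPA was known to be the extreme genotype when they were chosen, so their p-values add no support beyond the separation of the lists.

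The annotation classes shifted from promoters toward intergenic sequence. The promoter class of the authors reaches 3 kb from a start site. It took 49.3% ± 0.732 of wild-type and 38.9% ± 2.82 of HIF1dPA peaks (SD, n = 3 each). Distal intergenic peaks made up 31.9% ± 0.776 in wild-type and 41.6% ± 3.85 in HIF1dPA (SD, n = 3 each). Among full-list peaks with a score of at least 100, of which the HIF1dPA lists held 16, 25 and 20, the promoter difference was -1.58 points, against -10.4 for all peaks. The distal intergenic difference was 8.58 points at that score, against 9.75 for all peaks. With all peaks the groups stayed apart in both classes (exact two-sided permutation p = 0.1, adjusted p = 0.233 over 7 classes, each). The share of introns was 14.2% ± 0.673 in wild-type and 15.9% ± 1.56 in HIF1dPA (SD, n = 3 each), with overlapping ranges (exact permutation p = 0.3, adjusted p = 0.420). Exons held 2.30% ± 0.229 and 1.37% ± 0.135, and 3′ UTRs 2.09% ± 0.139 and 1.91% ± 0.284 (SD, n = 3 each), while 5′ UTRs and the class just downstream of genes held under 1% in every list.

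Full lists differ in length, so the same number of strongest peaks was taken from each library. This number was 474, the length of the shortest list. The lowest score taken was 109 ± 5.91 in wild-type and 50.2 ± 0.197 in HIF1dPA lists (SD, n = 3 each), so equal numbers did not mean equal strength. In full wild-type lists the promoter share itself fell with score. It was 62.9% ± 1.93 in the strongest decile of a list and 41.5% ± 2.96 in the weakest (SD, n = 3 each). Promoter shares at matched score were not compared between the groups. The promoter share was then 62.4% ± 2.98 in wild-type and 39.3% ± 2.86 in HIF1dPA (SD, n = 3 each), a difference of -23.1 points (exact permutation p = 0.1, adjusted p = 0.140). Distal intergenic shares were 23.8% ± 1.48 and 41.4% ± 3.54, and intron shares 7.74% ± 0.322 and 15.6% ± 1.59, in wild-type and HIF1dPA (SD, n = 3 each). The groups overlapped in none of these 3 classes. Against the other 9 H3K27me3 libraries, whose promoter share with 474 peaks was 59.7% to 67.9%, the HIF1dPA share of 37.6% to 42.6% was lower by 24.6 points on average (difference -24.6, exact two-sided permutation p = 0.00455, adjusted p = 0.00455). With full lists the difference was -12.1 points (exact permutation p = 0.00455, adjusted p = 0.00455).

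**Figure D1:**
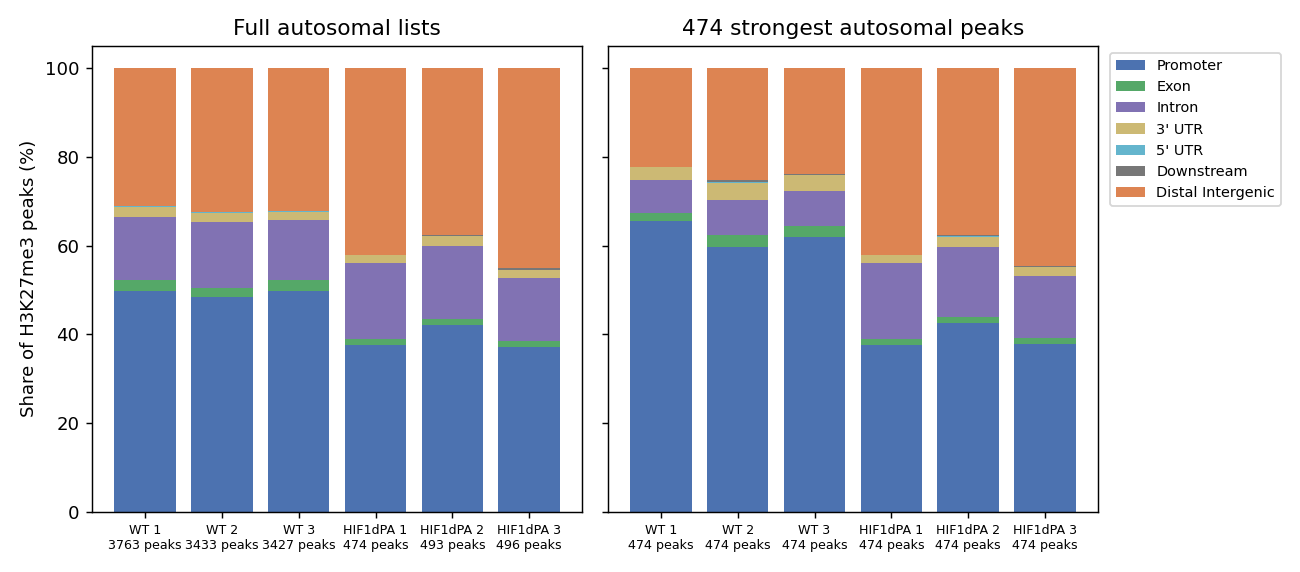
Share of autosomal H3K27me3 peaks in each annotation class (y axis, %), 1 bar per library, for full lists (left) and the 474 strongest peaks (right). The promoter part of the bar is at most 42.6% in each HIF1dPA library and at least 48.5% in each wild-type library on both sides.

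HIF1dPA peaks fell into a set that met a wild-type peak and a set that met none, and these differed in where they lay. A HIF1dPA peak met a peak of any wild-type list, by at least 1 bp, in 228, 250 and 236 cases, or 48.8% ± 1.68 of a list (SD, n = 3). Of the peaks that met a wild-type peak, 55.8% ± 2.62 were at promoters, and of those that met none, 22.9% ± 2.02 (SD, n = 3 each). Distal intergenic sequence held 53.0% ± 5.18 of the peaks that met none. For wild-type peaks the corresponding promoter shares were 58.8% ± 1.81 for those that met a HIF1dPA peak and 48.1% ± 1.05 for those that did not (SD, n = 3 each). The HIF1dPA peaks without a wild-type counterpart had a median width of 591 bp ± 10.3 and a median score of 54.4 ± 0.621 (SD, n = 3 each). None of them scored over 95.1. All 61 HIF1dPA peaks with a score of at least 100 met a wild-type peak.

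**Figure D2:**
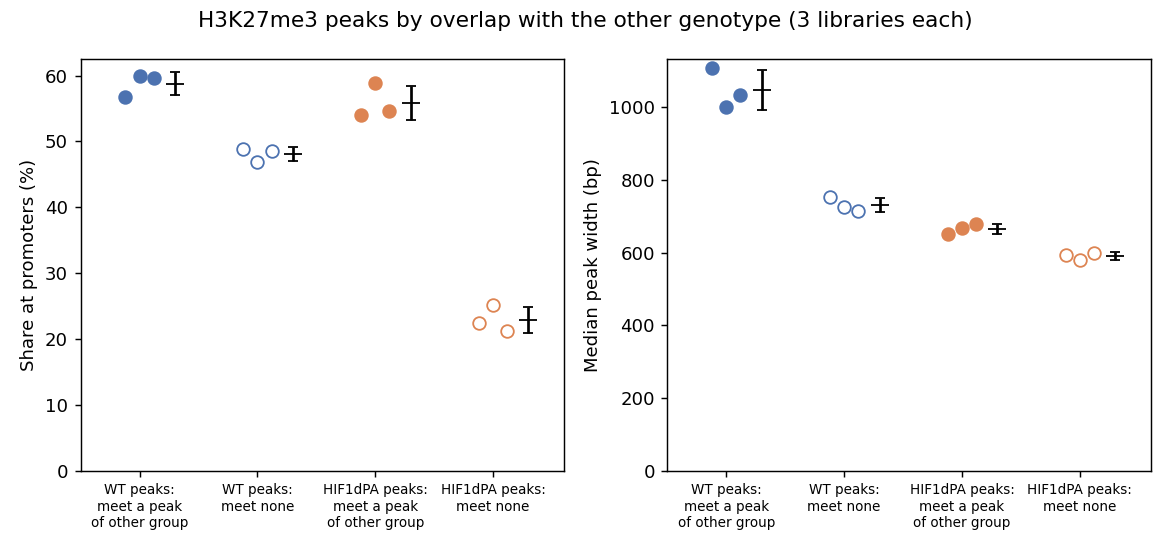
Promoter share (left, %) and median width (right, bp) of H3K27me3 peaks that met a peak of the other genotype (filled) or met none (open), 1 point per library, with mean and SD over 3 libraries beside them. HIF1dPA peaks that met no wild-type peak had the lowest promoter share, 22.9% on average, and those that met a wild-type peak 55.8%.

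Peaks without a wild-type counterpart seldom recurred. Of the 749 such peaks in the 3 HIF1dPA lists, 8 met a peak of another HIF1dPA list, or 1.07%. For comparison, 39.2% to 43.8% of the wild-type peaks that met no HIF1dPA peak met a peak of another wild-type list. Lists of equal length gave the same order: 37.2% ± 1.13 of the 474 strongest peaks of a wild-type library met those of another wild-type library (SD over 6 ordered pairs), and 7.03% ± 1.04 did so between HIF1dPA libraries (SD over 6 pairs). The 474 peaks of a HIF1dPA library met those of a wild-type library in 15.1% ± 1.55 (SD over 9 pairs). Wild-type peaks among these were wider, with a median of 1517 bp ± 98.5 against 618 bp ± 6.11 (SD, n = 3 each), which makes an overlap with them easier to meet. Pairs share libraries and were not tested.

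To see which wild-type peaks were found again, each wild-type list was divided by score into deciles. Of the strongest decile, 37.8% ± 1.29 met a HIF1dPA peak (SD, n = 3), and of the third 14.1% ± 0.999. From the fifth decile down, the mean was 4.53% to 7.69%. The same peaks met another wild-type list in 90.3% ± 1.90 for the strongest decile and in 28.6% ± 2.89 for the weakest (SD, n = 3 each). Even of the 100 strongest wild-type peaks, 54.0% ± 3.61 met a HIF1dPA peak and 97.3% ± 2.31 another wild-type list (SD, n = 3 each). Width went along with score. In the widest quartile 24.5% ± 0.716 met a HIF1dPA peak, and in the narrowest 4.78% ± 0.528 (SD, n = 3 each). By class, 14.1% ± 1.22 of promoter peaks, 10.4% ± 0.202 of distal intergenic peaks and 6.62% ± 0.558 of intron peaks were met in full lists (SD, n = 3 each). Among the 474 strongest peaks these shares were 33.8% ± 2.02, 36.0% ± 1.62 and 24.4% ± 3.87 (SD, n = 3 each), and the ranges of promoter (31.5% to 35.0%) and intergenic peaks (34.5% to 37.7%) overlapped.

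**Figure D3:**
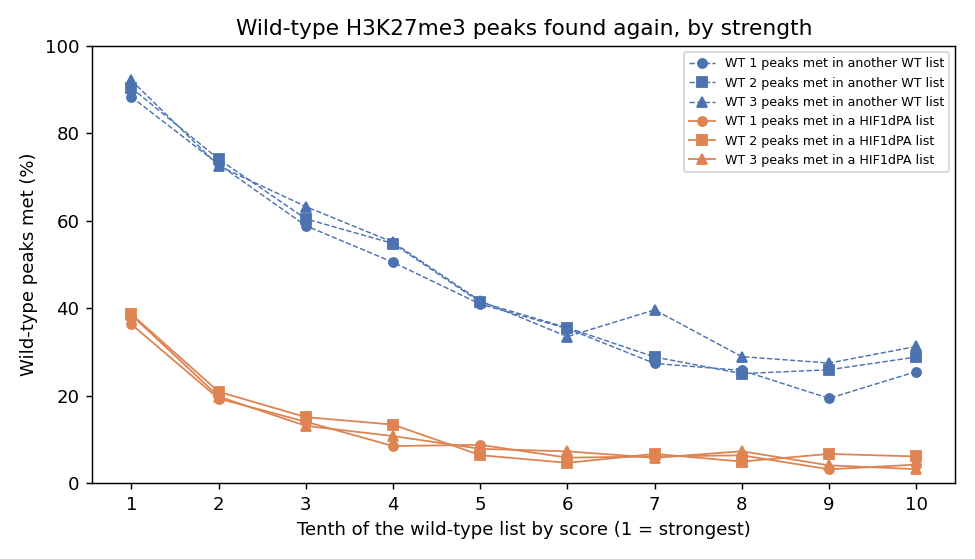
Share of wild-type H3K27me3 peaks (y axis, %) met by a peak of any HIF1dPA list (solid) or of another wild-type list (dashed), by decile of the wild-type list ordered by score (x axis), 1 line per wild-type library. The solid lines start at 37.8% on average and the dashed lines at 90.3%, and both fall toward the weaker peaks.

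A gene was called kept when all 6 lists had a peak assigned to it, lost when all 3 wild-type lists and no HIF1dPA list had one, and gained in the reverse case. With full lists, 3827 genes had a peak in any list. Of these, 387 were lost, which is 10.1%, 40 were kept, which is 1.05%, and 1 was gained, which is 0.0261%. Of the 760 genes with a peak in all 3 wild-type lists, 50.9% were lost and 5.26% kept, 227 had a peak in 1 HIF1dPA list and 106 in 2. The calls need all 3 lists of a group, and with HIF1dPA replicate 1, 2 or 3 left out 79, 70 or 77 genes were kept, while with wild-type replicate 2 or 3 left out 636 or 609 were lost. Of the 45 genes in all 3 HIF1dPA lists, 40 were in all 3 wild-type lists. The other 5 were Arhgef26, with no wild-type peak, and Dlgap1, Gm10800, Gm9923 and Tmem125, each with a peak in 1 or 2 wild-type lists. Of the 863 genes found in exactly 1 HIF1dPA list, 343 had no wild-type peak, or 39.7%.

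With the 474 strongest peaks the picture was more even. Of 1312 genes with a peak, 28 were lost, or 2.13%, 27 kept, or 2.06%, and 6 gained, or 0.457%. Of the 130 genes in all 3 wild-type lists at this length, 21.5% were lost and 20.8% kept. All 27 kept genes were kept with full lists too, and 27 of the 28 lost genes were lost with full lists, the other being Lhx1, with a HIF1dPA peak of score 50.3 in replicate 2. Of the 6 gained genes, 5 had a wild-type peak in the full lists. For merged regions, losses outnumbered kept regions at both lengths. Of 8175 regions, 375 were lost, or 4.59%, 20 kept, or 0.245%, and 0 gained, or 0.0%. With equal numbers 39 of 1975 were lost, or 1.97%, 12 kept, or 0.608%, and 3 gained, or 0.152%.

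At start sites few HIF1dPA peaks were left. RefSeq windows from 250 bases before to 50 after a start met a peak for 356, 297 and 285 gene symbols in wild-type and for 22, 24 and 28 in HIF1dPA lists. Of the 716 symbols with a peak over a window in any of the 6 lists, 34 were lost, or 4.75%, and 0 were kept or gained, or 0.0% each. The 34 included the developmental homeobox, forkhead or paired-box genes Msx1, Msx2, Dlx2, Gsx1, Lhx1, Lhx8, Foxd1, Pax6, Otp and Uncx. They also included genes of other kinds, such as Hmga2, Flt3, Chrna5 and Prok2, and transcripts such as Gm15524 and 2900092D14Rik. The share of developmental genes among the 34 and the 716 symbols was not compared. Gm40237 had a peak over a window in 2 wild-type and all 3 HIF1dPA lists. Pax2, the paired-box gene of kidney and midbrain, had one in all 3 wild-type and 2 HIF1dPA lists, and Lhx6 in 2 of each. These named genes were chosen after their values were seen.

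The genes kept in all 6 lists were led by Myh8, the strongest peak of every list. After it, by mean percentile of the strongest peak within each list, came Gm5614, Nkx2-4, Gm26553, Coil, Gm43517, Lin28b, Gm10801, Chl1 and Sp8. Further members were the oncofetal mRNA-binding protein genes Igf2bp1 and Igf2bp3, the LIM homeobox genes Lhx4 and Lhx9, the cardiac factors Gata4 and Nkx2-5, the digit gene Hoxd13, Foxl2 of the ovary, Tfap2b of the neural crest and Twist1 of mesenchyme. In wild-type the strongest peaks of kept genes had a median rank of 123 ± 19.2 and those of lost genes 1077 ± 33.7 (SD over 3 lists). Genes in 1 and 2 HIF1dPA lists lay between, at 617 ± 7.57 and 374 ± 34.5. Kept genes also had more sequence covered in wild-type, a median of 6445 bp ± 319 against 1399 bp ± 59.4 for lost genes (SD over 3 lists).

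What was kept was mostly a remnant. At 35 of the 40 kept genes, or 87.5%, every HIF1dPA list covered less sequence than every wild-type list. At 1 gene, Chl1, or 2.5%, every HIF1dPA list covered more, and at 4 genes, Wasf1, Gm9075, Coil and Gm10801, the groups overlapped. Over the 40 genes the median ratio of HIF1dPA to wild-type covered length was 0.156. For all autosomal peaks together the ratio of the mean covered lengths was 0.104, so shorter coverage was not particular to kept genes. Their peaks summed to 280, 273 and 275 kb in wild-type and to 52.0, 59.9 and 52.5 kb in HIF1dPA lists. The median number of peaks per kept gene was 5.5, 5 and 6 in wild-type and 1, 2 and 1 in HIF1dPA.

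Lin28b, which encodes an RNA-binding inhibitor of let-7 processing, had 9 peaks in each wild-type list covering 11844, 13318 and 11653 bp. In HIF1dPA lists it had 1, 6 and 2 peaks covering 576, 4329 and 1797 bp. All 3 HIF1dPA values lay far below the wild-type values, and HIF1dPA replicate 2 held the most.
At Igf2bp3, peaks covered 14051, 13134 and 12689 bp in wild-type and 2998, 1634 and 1517 bp in HIF1dPA lists. Gata4, a zinc-finger factor of heart and endoderm, was covered over 18794, 13591 and 12771 bp in wild-type and over 2557, 552 and 2996 bp in HIF1dPA. In both genes the groups stood apart, and HIF1dPA replicate 2 was not the highest in either.
Nkx2-4, a homeobox gene of the ventral brain, kept the strongest remnant among transcription factors. Its best score was 602, 467 and 285 in wild-type and 139, 102 and 104 in HIF1dPA, and it was the only developmental transcription factor whose best peak scored at least 100 in all 3 HIF1dPA lists. The other 5 genes that did so were Myh8, Gm5614, Gm9075, Gm10801 and Tmem125.
Sp8, a zinc-finger factor of limb outgrowth, went from 10527, 11506 and 17368 bp to 3416, 2204 and 2941 bp. Pax6 went from 11396, 5304 and 12328 bp to 1194, 1223 and 604 bp, without a HIF1dPA peak over the start shown above. Otp went from 10254, 13644 and 9202 bp to 1618, 1395 and 915 bp. These remnants were 1 to 5 peaks per list.

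Myh8 stood among the 7 kept genes with the highest ratios. Its peaks covered 4692, 3354 and 4792 bp in wild-type and 3211, 3068 and 3263 bp in HIF1dPA lists, a ratio of 0.743. The scores were at the ceiling of 3100 in each wild-type list and 1442, 1453 and 1468 in HIF1dPA lists. The groups did not overlap in either measure, while the rank was 1 in all 6 lists. Coil, which encodes coilin of the nuclear Cajal bodies, was covered over 1503, 3869 and 3470 bp in wild-type and 3549, 3601 and 3485 bp in HIF1dPA lists. Its scores were 203, 186 and 477 in wild-type and 75.8, 157 and 206 in HIF1dPA. The groups overlapped in both measures.

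Some kept loci also carried H3K9me3, the mark of constitutive heterochromatin. At 5 kept genes, Gm5614, Gm9075, Gm10801, Chl1 and 2210408I21Rik, the strongest H3K27me3 peak of each of the 6 lists met a peak of all 12 H3K9me3 lists of the series, whatever the genotype. At 32 kept genes it met none in any list, and at Esrp1, Lin28b and Nkx2-4 it met a peak of 1 H3K9me3 list in at least 1 library. Covered length was lower in every HIF1dPA list at 2 of these 5, Gm5614 and 2210408I21Rik, and at 33 of the other 35, where the median ratio was 0.153. Of the 5 kept genes that were not shorter, Chl1, Gm9075 and Gm10801 met H3K9me3 peaks and Coil and Wasf1 did not. Ranks are not comparable between lists of such different length, and are given beside the scores. Gm5614, at an intergenic peak on chr9:35304750-35305932 in wild-type replicate 1, ranked 103, 14 and 106 in wild-type and 2, 2 and 3 in HIF1dPA, with scores of 205, 336 and 178 against 510, 522 and 450. Gm9075 ranked 1176, 93 and 731 in wild-type and 4, 4 and 6 in HIF1dPA. Gm5614 and Gm9075 were the only kept genes with a higher score in every HIF1dPA than in every wild-type list, and Gm9075 had scores of 79.5, 187 and 89.9 against 228, 243 and 188. An H3K9me3 peak of the same genotype lay over 12, 15 and 17 H3K27me3 peaks in wild-type and over 11, 19 and 16 in HIF1dPA lists, which is 0.319% to 0.496% and 2.32% to 3.85% of a list. Whether one source gave both signals was not tested.

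**Figure D4:**
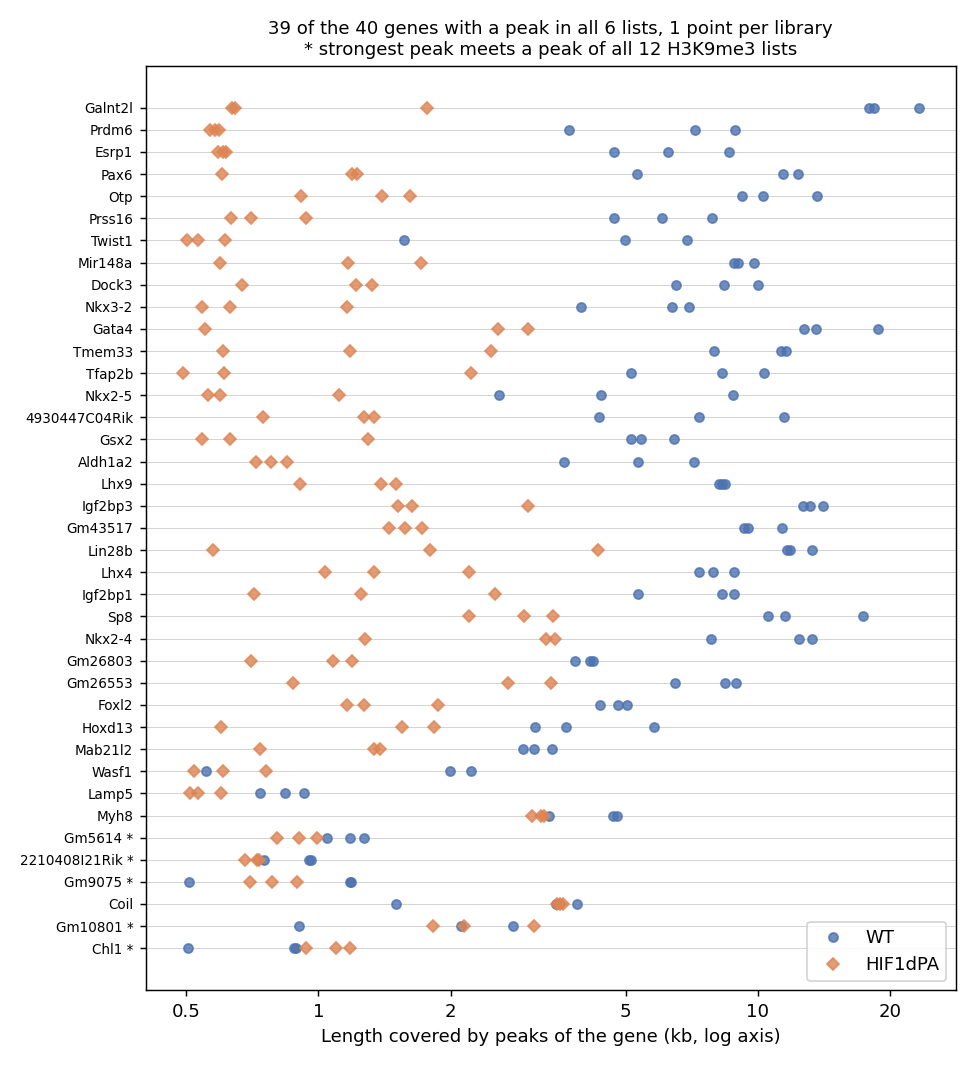
Length covered by H3K27me3 peaks (x axis, kb, log axis) at 39 of the 40 genes with a peak in all 6 lists (y axis, ordered by the ratio of group means), 1 point per library. HIF1dPA points lie left of all wild-type points at 34 of the 39 genes, and the 7 genes at the bottom, with the highest ratios, are Myh8, Coil and the 5 starred loci that meet H3K9me3 peaks.

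Lost genes were led by Gusb, which encodes lysosomal β-glucuronidase. Its peak, in exon 9 of 12 at chr5:129994083-129996625 in wild-type replicate 1, covered 2543, 2465 and 2298 bp and ranked 2 in each wild-type list, and no HIF1dPA list held a peak there. It was absent from the 6 mfn2-/- and vhl-/- lists as well. Ryr3, a ryanodine receptor of the sarcoplasmic reticulum, had a peak in intron 1 of 102 with scores of 221, 405 and 131 in wild-type, none in HIF1dPA and mfn2-/- lists, and a score of 51.1 in 1 vhl-/- list. These 2 loci were lost in the other genotypes too, or nearly so.

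The next lost genes included developmental regulators. Zic2, a zinc-finger factor of neural development, had scores of 355, 198 and 199 and covered lengths of 3024, 4375 and 6403 bp in wild-type. Hmx2, a homeobox gene of the inner ear, had scores of 199, 180 and 220. Fezf1, a zinc-finger factor of the olfactory system and forebrain, had 5, 6 and 6 peaks covering 6857, 7439 and 5631 bp. No HIF1dPA list had a peak of these 3 genes. Six3os1, the transcript antisense to the eye gene Six3, the phosphodiesterase Pde10a, Gm12993 and Gm11290 were also among the first 10, with scores between 120 and 250. With equal numbers, 6 of the 42 developmental genes in all 3 wild-type lists were lost and 9 kept, beside 28 lost and 27 kept of all 130 genes. The 6 were Zic2, Zic5, Pax5 of B cells, Neurog1 of sensory neurons, Foxb2 and Lhx1. Peaks lay near several genes, and the annotation names the nearest. At 7 of the 387 lost genes a HIF1dPA peak assigned to another gene met one of the wild-type peaks, and at 42 such a peak lay within 10000 bp, or 10.9%.

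The single gained gene was Arhgef26, a guanine nucleotide exchange factor. An intergenic peak assigned to it, 680, 673 and 588 bp wide in the 3 HIF1dPA lists, had scores of 52.9, 50.6 and 57.6, and none of the other 9 H3K27me3 lists had a peak of this gene. Its scores were near the lower limit of the lists. Another 8 genes had a peak in 2 HIF1dPA and no wild-type list, namely Gm4791, Gm8919, Gm22223, Gm7367, Pak1, Tpte, Rpl27a-ps2 and Htr1a. Their scores ran from 51.5 to 58.7. With equal numbers, Gm9923, Twist1, 2210408I21Rik, Lamp5 and Dlgap1 were called gained beside Arhgef26. At Twist1 the wild-type peaks, 7, 2 and 10 in number and covering 4985, 1566 and 6883 bp, had scores of 82.2 to 90.7 that fell below the 474 strongest, while the weaker HIF1dPA peaks, with scores of 50.7 to 60.0, did not.

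Gene lists were read against the 50.9% lost and 5.26% kept among all 760 genes with a peak in all 3 wild-type lists. In 17 lists of developmental regulators together, 149 genes were in all 3 wild-type lists. Of these 55 were lost, or 36.9%, 46 were in 1 and 36 in 2 HIF1dPA lists, and 12 were kept, or 8.05%. Developmental genes were 149 of the 760 genes, or 19.6%. Among lost genes they were 55 of 387, or 14.2%, and among kept genes 12 of 40, or 30%. They were 6 of the 352 genes with a peak in HIF1dPA lists only, or 1.70%.

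Counts for single transcription factor families were small and were not tested against each other. With all peaks of the full lists, no T-box gene (0 of 7) and no limb and mesenchyme paired-type homeobox gene (0 of 10) was lost. LIM homeobox genes had 2 of 12 lost, Lhx3 and Lhx5, and 2 kept, Lhx4 and Lhx9. Pax genes had 1 of 6 lost, Pax5, and 1 kept, Pax6. Mesodermal bHLH genes had 1 of 6 lost, Twist2, and 1 kept, Twist1.
Intermediate counts were found in head and brain homeobox genes (2 of 9 lost, Dmbx1 and Emx1), Irx and Bar genes (2 of 8), neural bHLH genes (3 of 10, among them Neurog1 and Neurod2), Sox genes (2 of 6, Sox17 and Sox5) and the Eya and Dach genes with their sine oculis partners (2 of 5, Eya1 and Dach1). None of these 5 lists had a kept gene.
Nkx genes had 4 of 10 lost, among them Nkx2-3 and Nkx2-6, and 3 kept, Nkx2-4, Nkx2-5 and Nkx3-2. Dlx, Msx and Gsx genes had 4 of 9 lost, including Msx1, Gsx1 and Dlx5, and Gsx2 kept. Gata, Zic and Sall genes had 6 of 13 lost, including Zic2, Zic5 and Sall3, and Gata4 kept. Hox genes had 6 of 12 lost, including Hoxd1, Hoxb1 and Hoxd11, and Hoxd13 kept.
Fox genes had 8 of 13 lost and Foxl2 kept, and the 8 include the antisense transcripts Foxd2os and Foxl2os. With full lists these families were close to or below the 50.9% of all genes, apart from the Fox genes.
The family counts moved with the peaks used. At a score of at least 100 the HIF1dPA lists held 16, 25 and 20 peaks, and 137 of all genes were lost and 3 kept. Only genes with such a peak in all 3 wild-type lists can then be called lost, so the set of genes counted changed too. The size of this set per family is not given here. Among peaks with a score of at least 100, the number lost was 3 instead of 6 for Hox, 4 instead of 8 for Fox, 1 instead of 4 for Nkx, 4 instead of 1 for Pax and 5 instead of 2 for LIM homeobox genes. T-box genes went from 0 to 2 and the limb and mesenchyme paired-type homeobox genes from 0 to 4. With promoter peaks only, 3 genes were lost in each of the T-box, limb and Pax lists.

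Counts for secreted signals, channels and receptors also moved with the peaks used. With full lists, in the Wnt pathway 6 of 7 genes were lost, among them Wnt1, Wnt10a, Wnt2b and Wnt16. In the FGF, BMP, GDF and hedgehog list all 6 were lost, among them Fgf8, Fgf20, Fgf17 and Gdf6. Potassium channels had 6 of 8 lost and neurotransmitter receptors 4 of 9, with 0 kept in either list. Among peaks with a score of at least 100, the number lost was 1 for the Wnt pathway and 0 for the other 3 lists. The number kept was 0 in all 4 lists at that score, so 0 lost does not mean that peaks were kept. With promoter peaks only, the number lost was 2, 4, 2 and 3 in this order. With equal numbers none of these 4 lists had a gene in all 3 wild-type lists. In wild-type the best scores of Fgf8, a signal of limb and brain patterning, were 99.0, 158 and 84.4, and those of Wnt10a, a signal of skin and tooth development, 57.2, 99.1 and 87.0. Lists were not tested against each other or compared at matched wild-type rank.

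Few genes of muscle or of other cell types of the tissue had a peak. Of the myogenic regulators, Calcr, the calcitonin receptor of quiescent stem cells, was lost, with scores of 202, 181 and 70.9 in wild-type. Pax7, the stem cell marker, had a peak in 2 wild-type and 0 HIF1dPA lists, with scores of 105 and 67.9. Hif1a, Myod1 and Myog had no peak, and Nfatc2 a peak in 1 list of each group, with scores of 51.3 and 54.6. Among markers of other cells, Flt1 of endothelium was lost, and the immune and the fibro-adipogenic and tendon lists had 1 gene each in all 3 wild-type lists, neither of them lost. The Schwann and pericyte list, HIF1 targets, imprinted genes and clustered protocadherins had 0 genes in all 3 wild-type lists, and genes of the H3K27 methylation machinery had 0 with a peak in any list.

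**Figure D5:**
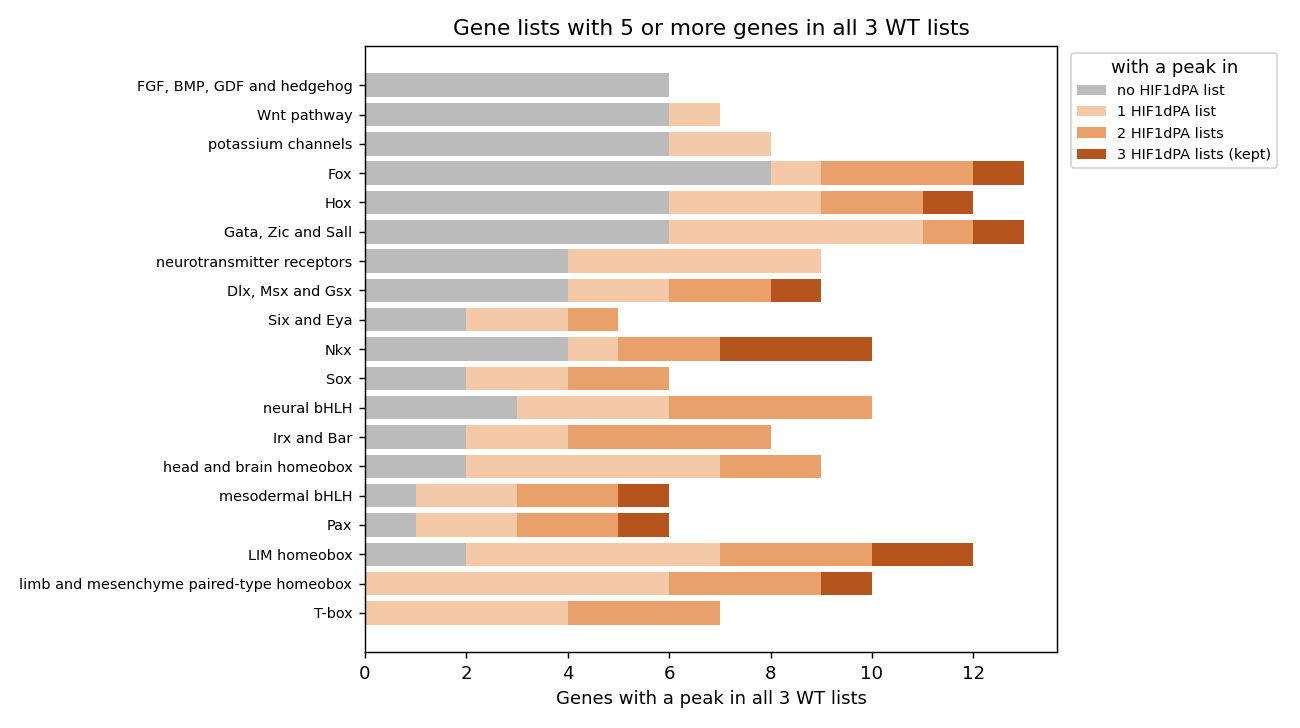
Number of genes with a peak in all 3 wild-type lists (x axis) for each gene list with at least 5 such genes (y axis), split by the number of HIF1dPA lists with a peak. With full lists, 0 of 7 T-box genes and all 6 FGF, BMP, GDF and hedgehog genes were without a HIF1dPA peak. At a score of at least 100, where a different set of genes is counted, the numbers lost were 2 and 0 and the numbers kept 0 and 0.

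The other genotypes kept more of the same genes. Of the 760 genes in all 3 wild-type lists, 40 had a peak in all 3 HIF1dPA lists, 406 in all 3 mfn2-/- lists and 527 in all 3 vhl-/- lists. Those lists were also longer, with 2342 to 4023 peaks against 474 to 496. Of the 387 genes lost in HIF1dPA, 130 had a peak in all 3 mfn2-/- lists, or 33.6%, and 218 in all 3 vhl-/- lists, or 56.3%. Over all 760 genes these shares were 53.4% and 69.3%. No peak was found in mfn2-/- lists at 76 of the lost genes, or 19.6%, and in vhl-/- lists at 16, or 4.13%. Over all 760 genes these shares were 12.1% and 3.29%. These comparisons share the wild-type libraries. An assigned H3K9me3 peak in any of the 12 H3K9me3 lists was present at 61 of the 387 lost genes, or 15.8%, at 16 of the 40 kept genes, or 40%, and at 140 of the 760 genes, or 18.4%.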

How the data were processed

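ChIP-seq peak lists of H3K27me3 from 3 wild-type and 3 HIF1dPA libraries were analysed, with 6 further H3K27me3 and 12 H3K9me3 lists for comparison. The authors deposited 1 annotated list per library, with a score (-10 × log10 of the p-value) per peak, from 50 up. The submitters' processing notes name BWA 0.7.5, MACS, deepTools 3.5.0 and mm10. Filters and use of the input library are not given in the sources used here. Libraries were grouped by label. Peaks were ranked by score within a list, genes taken as assigned by the authors, and overlaps set at 1 bp or more. Groups were compared with exact two-sided permutation tests over libraries and Benjamini-Hochberg adjustment. Counts of genes and regions were not tested. The members, the 30 gene lists and the tests were chosen with earlier results of these data known. Genes were named by the mean percentile of their strongest peak: the first 10 lost, kept and gained with full lists, the first 5 with equal numbers, up to 4 per list, and the genes of the study. Others are said to be chosen afterwards, or are members of a set of 40 or fewer. Promoter sequences came from RefSeq (GRCm38.p6). Alternatives were a score of at least 100, promoter peaks only, other overlap and joining rules, a shorter equal number, each library left out and a replicate block. The shared functions for gene and region calls, overlaps, permutation tests and adjustment were tested on simulated data. Versions were matplotlib 3.10.9, pandas 2.3.3, numpy 2.4.6 and Python 3.11.15. Some named genes are not reported here.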

Additional observations from a re-analysis of the deposited data

Results flagged for a closer look

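Both results stood out because HIF1dPA differed from the 6 mfn2-/- and vhl-/- libraries in a test of the difference itself. The number of autosomal peaks differed by -2661 on average (exact two-sided permutation p = 0.0119, the smallest possible for 3 against 6) and was lower in 3 of 3 libraries. With 474 peaks per list, the promoter share differed by -25.3 percentage points (exact two-sided permutation p = 0.0119) and was lower in 3 of 3 libraries. Here, too, equal numbers did not mean equal strength. Adjustment over 4 measures left both values of the exact permutation test at 0.0119. These tests, too, were chosen with earlier results of these data known, and they treat libraries of different genotypes as interchangeable.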

How the results depend on the processing

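The ratios of peak number and covered length and the promoter differences kept their direction under every alternative run. At a score of at least 100, however, the full-list promoter difference shrank to -1.58 points, while the distal intergenic difference was 8.58 points. All comparisons of HIF1dPA with the other 9 libraries kept their direction and their side of the threshold under the alternatives run for them. A score of at least 100 was not among these alternatives. Other results did not, and the cause was not tested. With an equal number of peaks the ratio of genes with a peak reversed to 1.26, and the share of peaks meeting the other group, HIF1dPA minus wild-type, reversed to -6.68 points. Then 26.2% of HIF1dPA peaks met a wild-type peak, 32.8% of wild-type peaks met a HIF1dPA peak, and 6 developmental genes were lost. At a score of at least 100 the full-list intron difference reversed to -8.82 and the exon difference to 1.51 points. At that score 137 genes were lost, 3 kept and 0 gained, 1 developmental gene was kept, 110 regions were lost and 2 kept, and 76.8% of HIF1dPA and 4.02% of wild-type peaks met the other group. With promoter peaks only, 16 genes were kept and 0 gained, 6 of the kept being developmental, and with equal numbers 11 were kept and 1 gained. With at least 50% of a peak or region covered, 184 regions were lost and 5 kept, 3 were kept with equal numbers, and 42.9% of HIF1dPA and 5.53% of wild-type peaks met the other group. Joining peaks within 1000 bp gave 34 kept regions, and 19 with equal numbers. At 50% of the shortest list 11 genes were lost and 13 kept.

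Leaving out each library in turn gave 454 to 636 genes lost, 40 to 79 kept and 1 to 5 gained, and with equal numbers 36 to 46 lost, 29 to 41 kept and 7 to 29 gained. Regions ranged from 429 to 756 lost, 18 to 48 kept and 0 to 2 gained, and with equal numbers from 46 to 81 lost, 10 to 23 kept and 3 to 13 gained. The share of HIF1dPA peaks meeting a wild-type peak was 42.9% to 49.4%, and of wild-type peaks meeting a HIF1dPA peak 8.36% to 12.1%. A call then needs fewer lists. Counts of lost and gained genes and regions were at or above those with all libraries, and kept regions fell below them only without a wild-type library.

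With the replicate block the exact permutation p was 0.25 for the ratio of peak numbers of 0.138, the smallest that 3 pairs allow, and 0.0156 for the comparison with 9 libraries. For libraries with the same number, an r calculated from covered length per gene, log2(bp + 1), was -0.000931 to 0.0160. For libraries with different numbers it was -0.0167 to 0.0168. This r serves only to set same against different numbers and does not show whether coverage per gene agrees between the genotypes. HIF1dPA lists name few genes, so this r cannot settle whether libraries with the same number share more than that number. Leaving out peaks that met an H3K9me3 peak was added after seeing the data and moved no result that answers a comparison. Sequencing depth was unknown, so a missing peak is a missing call.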
